A study of Mus musculus with 6 samples.

Results

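The miR-34 and miR-449 family was measured with 4 of the 350 miRNA assays of a quantitative RT-PCR panel run on mouse CD8+ T cells. The 4 assays, miR-34a, miR-34b-3p, miR-34c and miR-449a, are those among the mouse-named assays without a star for miR-34a, miR-34b, miR-34c, miR-449a, miR-449b and miR-449c. They were chosen by name, with earlier results of these data known. miR-449b, miR-449c and the 5p strand of miR-34b were not analysed here. The cells were pMel-1 transgenic CD8+ T cells, whose T cell receptor recognises the melanoma antigen gp100, cultured for 3 days. In the DC-primed group (3 samples, the study's test) they were activated with bone marrow-derived dendritic cells matured with LPS, and in the B cell-primed group (3 samples, the control) with splenic B cells loaded with the peptide hgp100(25-33). Rounds 1, 2 and 3 each gave 1 sample of either group, but no label says that a round is a separate animal or culture, so the p-values speak only of the spread among these 6 samples. The samples are bulk RNA, in which fewer cells of a type and less RNA per cell cannot be told apart.

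MicroRNAs are short RNAs that pair with messenger RNAs, mostly through the seed near their 5′ end, and lower the output of those messengers. The genes of the miR-34 family are direct targets of the tumour suppressor p53, and miR-34 lowers factors that drive the cell cycle and survival. miR-34b and miR-34c come from a shared primary transcript that is abundant in testis, brain and airway epithelium, whereas miR-34a has its own gene and is expressed widely, lymphocytes included. The miR-449 cluster lies within Cdc20b, carries the same seed as miR-34 and is best known from multiciliated epithelial cells.

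The mature sequences show which assays read miRNAs that can share targets. RefSeq (GRCm38.p6) held 9 mature sequences of the family, and the 6 below were picked because they are the assayed strands or their seed partners; capitals mark the seed, bases 2 to 8 from the 5′ end.
miR-34a-5p: uGGCAGUGucuuagcugguugu
miR-449a-5p: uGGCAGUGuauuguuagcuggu
miR-34b-5p: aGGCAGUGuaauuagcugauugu
miR-449c-5p: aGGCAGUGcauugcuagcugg
miR-34b-3p: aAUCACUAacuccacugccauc
miR-34c-3p: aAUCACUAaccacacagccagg
The first 4 carry the seed GGCAGUG, which no other of the 1738 mature mouse sequences in the table had. miR-34c-5p was not among these mature sequences, so the count leaves it out. The Mir34c hairpin in the table holds the same letters, and miR-34c-5p is known to share this seed. The miR-34b-3p assay therefore reads a strand with another seed, AUCACUA, which it shared with miR-34c-3p alone. Under the older naming that these assays use, plain miR-34c is the 5p strand and miR-34c* the 3p strand; of these, miR-34c-5p is given here by name only. miR-34a-5p lies on the plus strand at chr4:150068473-150068494. miR-34b-3p lies on the minus strand at chr9:51103574-51103595 and miR-34c-3p, also on the minus strand, at chr9:51103044-51103065, both within the annotated spans of Btg4 and Hoatz. miR-449a-5p lies on the plus strand at chr13:113037549-113037570, within the span of Cdc20b. The assay uses poly(A) tailing and a single miRNA-specific primer, which separates near-identical miRNAs poorly. Counted from the 5′ end, miR-34a-5p and miR-449a-5p had the same base at 15 of 22 positions, and miR-34b-3p and miR-34c-3p at 17 of 22.

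DC-primed sample 3 stood apart from the rest: 280 of its assays had a Ct below 35, while DC-primed samples 1 and 2 had 337 and 327 and the range was 336 to 341 in the B cell-primed samples. The differences of the family assays are given with and without it. The raw Ct spans, the likeness between assays, the overlap of groups and the marker sums all include it. Ct is the threshold cycle, the PCR cycle at which product is called, so that a lower Ct means more RNA.

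The 4 assays differed widely in level. miR-34c had the earliest Ct of all miRNA assays in each of the 6 samples; whether this assay reads mature miR-34c alone was not tested, which bears on every miR-34c value here. Its raw Ct was 15.25, 15.26 and 14.54 in DC-primed samples 1, 2 and 3 (numbered by round), against 14.5, 15.54 and 15.04 in B cell-primed samples. The groups overlapped. The next assay by mean Ct, miR-709, came 3.08 cycles later. miR-21, an abundant miRNA of activated T cells, came 4.13 cycles after miR-34c. miR-34b-3p, from the same primary transcript as miR-34c, had a raw Ct of 26.62, 27.14 and 27.09 in DC-primed and 26.57, 27.47 and 26.66 in B cell-primed samples. miR-34a lay in the same range, at 25.26, 29.03 and 28.14 in DC-primed and 27.59, 26.87 and 26.37 in B cell-primed samples. These 2 assays had no fixed order: miR-34a was the earlier one in DC-primed sample 1 and B cell-primed samples 2 and 3, and the later one in the other 3 samples. miR-449a was the latest, at 31.7, 38.44 and 40.77 in DC-primed and 30.99, 30.87 and 31.24 in B cell-primed samples. Among all assays with a Ct, it ranked from 273 of 350 to 343 of 349. The efficiency of each primer is not given in the sources used here, so a gap between assays is not a ratio of molecules.

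**Figure D1:**
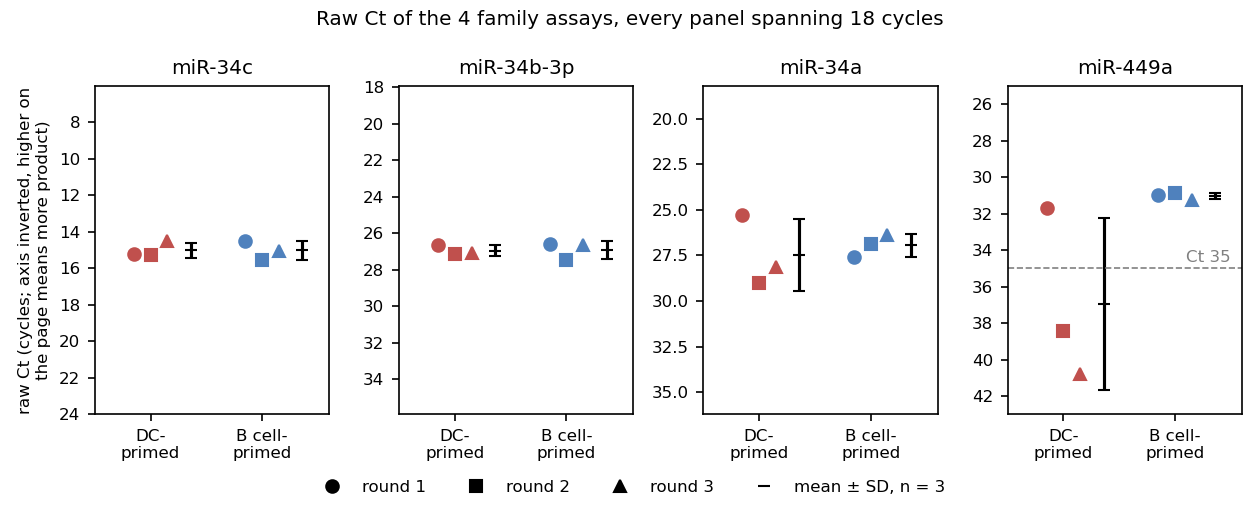
Raw Ct in cycles (vertical axis, inverted so that higher on the page means more product) of miR-34c, miR-34b-3p, miR-34a and miR-449a in the 3 DC-primed and 3 B cell-primed samples, with a marker for each round, the group mean and the SD (n = 3). miR-34c and miR-34b-3p were level across samples, whereas miR-449a in DC-primed samples 2 and 3 lay past Ct 35.

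Within a sample, the gap between miR-34b-3p and miR-34c involves no scaling. It was 11.37, 11.88 and 12.55 cycles in DC-primed and 12.07, 11.93 and 11.62 cycles in B cell-primed samples, with means of 11.93 ± 0.59 and 11.87 ± 0.23 (SD, n = 3 each). The groups overlapped, and their means differed by 0.06 cycles. Over the 6 samples this gap spanned 1.18 cycles, while the raw Ct of miR-34b-3p alone spanned 0.90 and that of miR-34c 1.04. A steady gap between 2 assays with a nearly constant Ct therefore shows no joint movement. The gap between miR-34a and miR-34c spanned 3.76 cycles. miR-34a came 10.01, 13.77 and 13.6 cycles after miR-34c in DC-primed samples and 13.09, 11.33 and 11.33 cycles after it in B cell-primed samples. Of the star strand, miR-34c* had a raw Ct of 28.38, 27.12 and 30.11 in DC-primed and 28.55, 28.29 and 26.66 in B cell-primed samples, which places it 11.62 to 15.57 cycles after miR-34c from the same hairpin.

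The comparison asks how miRNA levels in the T cells depend on the priming cell. Levels below are on the log2 scale as minus dCt, where dCt is the authors' Ct minus 1 number per sample (within 0.01 cycles in 343 of 345 assays, the family included; miR-23a and miR-23b departed from it), so that 1 unit is a 2-fold difference. Of the family, 3 assays had a Ct below 35 in all 6 samples and entered the limma fit over 274 assays. All 3 were higher on average in DC-primed cells, and none passed the test. limma called 0% of the 274 assays at an adjusted p under 0.05 and 24 (8.76%) at an unadjusted p under 0.05, so the family's count of 0 is that of the panel; the smallest adjusted p of the panel was 0.228. The median difference was 1.28 over the 3 family assays and 0.07 over all 274.

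miR-34c was at 10.93, 13.20 and 15.92 in DC-primed samples, against 11.85, 11.58 and 12.59 in B cell-primed samples. The DC-primed sample of round 1 was the lowest of the 6 and those of rounds 2 and 3 the highest, so the groups overlapped. The difference was 1.34 ± 1.17 (SE, 95% confidence interval -1.32 to 3.9998, limma adjusted p = 0.961). miR-34b-3p followed the same order of rounds, at -0.44, 1.32 and 3.37 in DC-primed and -0.22, -0.35 and 0.97 in B cell-primed samples. Its difference was 1.28 ± 1.00 (interval -0.998 to 3.56, limma adjusted p = 0.957), negative in round 1 and positive in rounds 2 and 3. The p53-responsive miR-34a was at 0.92, -0.57 and 2.32 in DC-primed and -1.24, 0.25 and 1.26 in B cell-primed samples. Its difference was 0.80 ± 0.96 (interval -1.39 to 2.99, limma adjusted p = 0.971), positive in rounds 1 and 3 and negative in round 2. No family assay was higher in all 3 rounds, which 12.8% of the tested assays were. miR-34c* differed by 0.63 ± 1.13 and did not pass either (limma adjusted p = 0.986). In the authors' deposited table the fold change of DC-primed over B cell-primed is 2.53 for miR-34c, 2.43 for miR-34b-3p and 1.74 for miR-34a, with paired p of 0.391, 0.242 and 0.457.

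These differences were smaller without DC-primed sample 3. Without it, miR-34c differed by 0.06, miR-34b-3p by 0.30 and miR-34a by 0.08. Without DC-primed sample 1, miR-34c differed by 2.55 and miR-34b-3p by 2.21, with unadjusted p of 0.023 and 0.0292 and adjusted p of 0.198 each (limma); there 21.2% of all tested assays had an unadjusted p under 0.05. Without B cell-primed sample 1 the miR-34a difference was 0.13, and without DC-primed sample 2 it was 1.53.

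On raw Ct, miR-34c and miR-34b-3p hardly differed between the groups. The authors' per-sample number was 26.2, 28.5 and 30.5 cycles in DC-primed and 26.4, 27.1 and 27.6 cycles in B cell-primed samples, a difference of 1.33 cycles between the group means. DC-primed cells had a mean raw Ct of 15.02 ± 0.41 for miR-34c, and B cell-primed cells one of 15.03 ± 0.52 (SD, n = 3 each). For miR-34b-3p the means were 26.95 ± 0.29 in DC-primed cells and 26.90 ± 0.50 in B cell-primed cells. Neither difference, -0.01 and 0.05 cycles, exceeded the spread between samples. For miR-34a they were 27.48 ± 1.97 in DC-primed cells and 26.94 ± 0.61 in B cell-primed cells, 0.53 cycles later in DC-primed cells and also within the spread. Over the 6 samples the raw Ct of miR-34b-3p spanned 0.90 cycles and that of miR-34c 1.04 cycles, ranks 2 and 4 from the flattest of the 274 tested assays. The median span was 4.54 cycles, and miR-34a spanned 3.77.

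**Figure D2:**
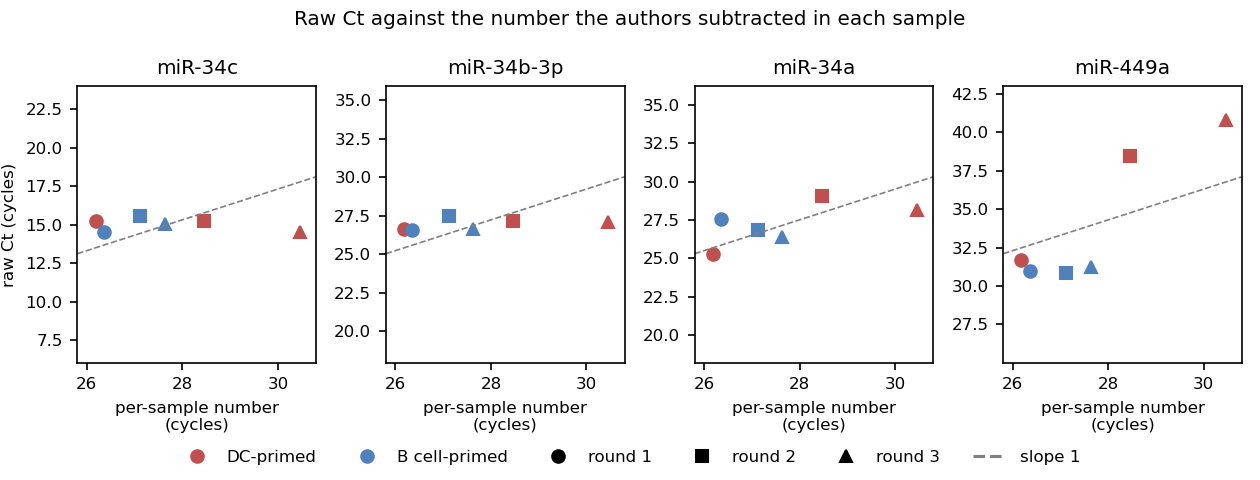
Raw Ct in cycles (vertical axis) of the 4 assays against the number the authors subtracted from each sample's Ct values, in cycles (horizontal axis), with colours for the groups and markers for the rounds; along the dashed line Ct moves with that number and the scaled level stays the same. miR-34c and miR-34b-3p ran flat while the number spanned 4.27 cycles.

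**Figure D3:**
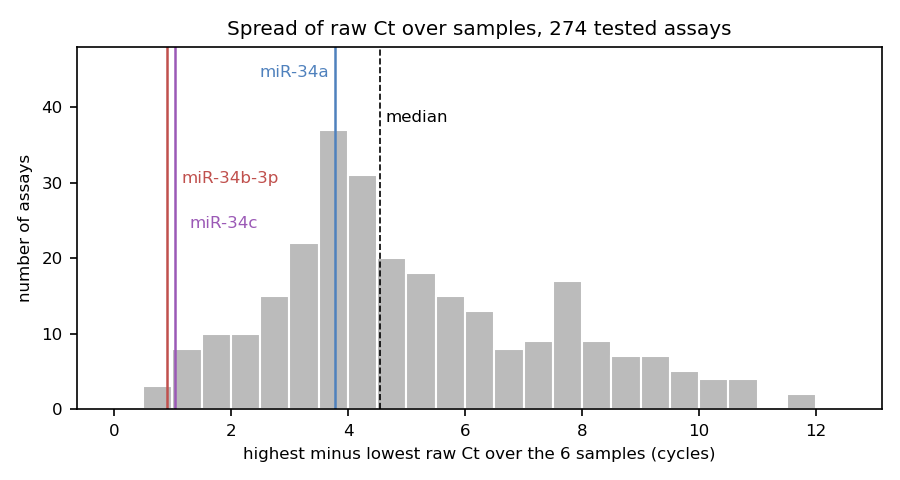
Number of assays (vertical axis) by the highest minus the lowest raw Ct over the 6 samples, in cycles (horizontal axis), for the 274 tested assays. The lines for miR-34b-3p at 0.90 and miR-34c at 1.04 cycles lie at the low end, that for miR-34a at 3.77 cycles between the lower quartile of 3.52 and the median of 4.54.

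The direction of the family therefore depended on the scaling. Without normalization the difference, in the same direction, was 0.01 for miR-34c, -0.05 for miR-34b-3p and -0.53 for miR-34a, while the median over all tested assays was -1.26. Scaled to the control wells (RNY3 and snoRD47, both small RNAs) it was 2.57, 2.51 and 2.02, with a median over all tested assays of 1.30. Under both scalings the 3 assays lay above the median of the panel, but these scalings differ only by 1 number per sample. That number shifts every assay and the median alike, so their agreement on this point was fixed in advance. Under neither did 1 of the 3 assays pass (limma, smallest adjusted p among them 0.712). After quantile normalization the miR-34c difference was 0 by construction, since it was the top assay in every sample. The control wells repeat every 94 rows, and their mean included the late wells of the last stretch, which holds none of these 3 assays. Relative to the RNY3 wells of its own 94 rows, miR-34c differed by 2.025, miR-34b-3p by 2.15 and miR-34a by 1.67. Relative to the snoRD47 wells of those rows the differences were 2.38, 2.10 and 1.61.

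**Figure D4:**
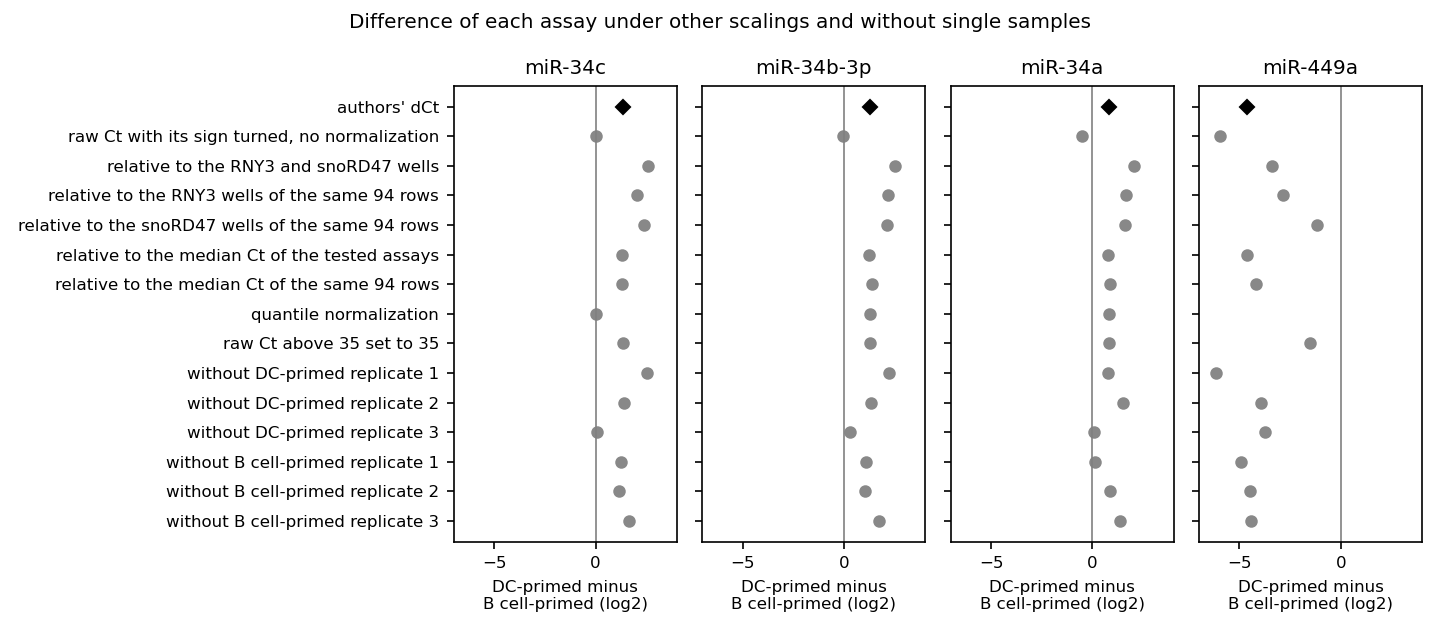
Difference of each assay, DC-primed minus B cell-primed on the log2 scale (horizontal axis), from the authors' dCt (diamond) and under other scalings or without single samples (circles, named on the vertical axis). The miR-34 assays lie between -0.53 and 2.57, and the miR-449a values lie below 0 in every setting drawn.

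On the authors' scale miR-449a was the only family assay lower in DC-primed cells, and it was the only one not tested, since its Ct passed 35 in DC-primed samples 2 and 3. On the scaled log2 level it was at -5.52, -9.98 and -10.3 in DC-primed and -4.64, -3.75 and -3.61 in B cell-primed samples. The groups did not overlap, with DC-primed lower, as for 9.86% of the 345 assays with a dCt. DC-primed sample 1 lay close to the B cell-primed samples and the other 2 far below. Without DC-primed sample 3 the mean difference was -3.75, and over all 6 samples it was -4.61. The authors' deposited table lists it as a fold change of 0.041 with a paired p of 0.132. A Ct past 35 gives only a limit, so on the scaled level with a Ct of 35 in its place miR-449a was at least 6.94-fold lower in the DC-primed sample of round 2 and at least 1.91-fold lower in that of round 3, and in round 1, where both Ct values were below 35, it was 1.84-fold lower. With Ct values past 35 set to 35 the mean difference was -1.54, rank 36 from the lowest of 335 assays, and the groups overlapped. Fitted without a filter on the deposited Ct, the difference had an interval of -7.66 to -1.56 and did not pass (limma adjusted p = 0.441, 0.620 with Ct values past 35 set to 35). Its unadjusted p was 0.0088, where 7.83% of the 345 assays were under 0.05, and 0.0758 with Ct values past 35 set to 35.

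The Ct table repeats its control wells every 94 rows, and miR-449a stands in the fourth and last stretch, where the RNY3 and snoRD47 wells came late. In these rows the RNY3 wells of the DC-primed sample were 0.27, 4.39 and 4.63 cycles later than those of the B cell-primed sample in rounds 1, 2 and 3, and the snoRD47 wells 1.95, 6.62 and 5.67 cycles later. The wells of cel-mir-67, a worm miRNA repeated in the same way, did not share this order: DC-primed minus B cell-primed, they differed by -3.92, 5.11 and -1.13 cycles, with a mean of 0.02. The RNY3 and snoRD47 wells came later in DC-primed samples in the other stretches too, by 1.55 to 2.20 and 2.15 to 2.37 cycles on average. In the last stretch these means were 3.10 and 4.75 cycles. The median miRNA assay came 1.73 cycles later there and 1.03 to 1.41 cycles later in the other stretches. The Ct gap of miR-449a was 0.71, 7.57 and 9.53 cycles. Relative to the RNY3 wells of the same rows its mean difference was -2.84, relative to the snoRD47 wells -1.19, and relative to the median miRNA assay of those rows -4.21. Relative to the cel-mir-67 wells of those rows it was -5.92. Against the snoRD47 wells the difference was 1.24 in round 1, higher in DC-primed cells, and -0.955 and -3.86 in rounds 2 and 3. Of 10 assays (2.90% of 345) past Ct 35 in at least 2 DC-primed and no B cell-primed samples, 6 stood in these rows, and 0 assays showed the reverse. The part of these rows in the miR-449a difference was not tested beyond these values. miR-34c* stands in the same rows, miR-34c in the second stretch, and miR-34a and miR-34b-3p in the third.

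Among the other 273 tested assays, the one whose level over the 6 samples was most like that of miR-34c was miR-34b-3p, with a Pearson r of 0.99, and the reverse held too. Next for both came miR-154 (0.98 with each) and the human-named miR-26a-1* (0.98 with each). The points share the per-sample number, and 21 assays had an r above 0.9 with miR-34c and 22 with miR-34b-3p. The raw Ct of miR-154 spanned 1.47 cycles and that of miR-26a-1* 1.6 cycles, so these too are assays whose Ct moved little. miR-34a was most like miR-210, a hypoxia-induced miRNA, at 0.87, the human-named miR-424* at 0.86 and miR-92a at 0.81. Its r was 0.61 with miR-34b-3p and 0.55 with miR-34c, ranks 18 and 30.

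Outside the family, 9 further miRNAs tied to p53 were listed, of which 6 had a mouse-named assay and 5 were tested. None passed, 1 was higher and 4 were lower in DC-primed cells, and their median difference was -0.38, beside 0.07 over all tested assays. The highest was miR-143, whose processing p53 promotes, at 0.74 ± 1.00 (SE), and the lowest was miR-200c, which p53 induces in epithelial cells, at -1.01 ± 1.32. miR-16 differed by -0.94, miR-15a by -0.38 and miR-194 by -0.07.

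Markers of cell types that could add RNA were compared beside these values. All 4 tested myeloid and dendritic markers of 6 present were higher in DC-primed cells and 0 passed, with a median of 2.53. Summed over all 6, the untested ones included, the log2 level was 1.58 to 7.39 in DC-primed and 0.82 to 1.79 in B cell-primed samples, highest in DC-primed sample 1. There miR-223, abundant in myeloid cells, had a Ct of 20.82, against 36.99 in DC-primed sample 3. Of the epithelial markers, 4 of 6 had a mouse-named assay, and 2 were higher and 2 lower, with summed levels of 0.86 to 3.71 in DC-primed and 0.79 to 2.94 in B cell-primed samples. All 4 tested of 5 general lymphocyte markers were higher on average and 0 passed. Summed over all 5, levels were 8.09 to 8.85 in DC-primed and 5.999 to 7.48 in B cell-primed samples. The sum of 8.09, in DC-primed sample 3, includes a dCt of the untested miR-142-3p, which has no Ct there. These ranges therefore cannot be read as a separation of the groups. No miRNA of these lists defines CD8+ T cells alone, and the part of other cells in the family's levels was not tested.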

How the data were processed

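Per the labels' protocols, RNA was poly(A)-tailed, copied to cDNA with a universal tag and amplified with SYBR Green and a miRNA-specific forward primer. One deposited table holds raw Ct and another the authors' dCt, a log2 scale with the sign turned; their file names state the reverse, while the values match the first header lines. Per the file headers, a sample's dCt was taken against the geometric mean over all its Ct values; the per-sample number used here is the median of deposited Ct minus dCt, and it returned the family's dCt exactly to 6 decimals. The authors' p-value is from a paired test and their fold change is a linear ratio, DC-primed as numerator, per the file headers. The instrument is not given in the sources used here.

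Assays with a Ct below 35 in all 6 samples were tested (274 of 345) with limma 3.58.1 under R 4.3.3 (lmFit, then eBayes, two-sided, no block), with Benjamini-Hochberg adjustment over all of them and a threshold of 0.05; the fit was tested on simulated data. After subtracting group means, the samples sharing a round number in their titles correlated over assays with r of 0.16, 0.14 and 0.46. Samples of different rounds had r of -0.42 to 0.33. DC-primed sample 1 was more like B cell-primed sample 2 (0.33) than B cell-primed sample 1 of its own round (0.16). Rounds were taken to pair the samples in the block alternative, which these values bear out only in part. Named assays are all 4 members, the 3 assays most alike in level by Pearson r, the star strand of the family, and the largest and smallest member of the p53-linked list; miR-223 and miR-21 are landmarks. miR-709, miR-23a, miR-23b, miR-142-3p, miR-16, miR-15a and miR-194 were named after their values were seen. The members and lists were chosen with earlier results of these data known. The alternatives by stretches of 94 rows and with Ct set to 35 were chosen after seeing the data. Sequences are RefSeq's, matched by name; no build is named by the files. Figures used matplotlib 3.10.9 in Python 3.11.15.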

Additional observations from a re-analysis of the deposited data

How the results depend on the processing

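No family assay was called under any of the 17 alternative fits; the count over all assays was 0 in 16 of them and 2 without DC-primed replicate 3 (range 0 to 2 leaving out single samples). Adjusted p over the alternatives was 0.712 to 1.00 for miR-34a and at least 0.198 for miR-34b-3p and miR-34c. Without normalization 2 directions turned, to -0.53 for miR-34a and -0.05 for miR-34b-3p, by the size of the number subtracted. Leaving out single samples gave 0.08 to 1.53 for miR-34a, 0.30 to 2.21 for miR-34b-3p, 0.06 to 2.55 for miR-34c, -6.15 to -3.75 for miR-449a and 0.08 to 2.21 for the median. With raw Ct above 35 set to 35, miR-449a differed by -1.54, since this removes the late values, and relative to the snoRD47 wells of the same 94 rows by -1.19. With the round as replicate block the differences stayed at 0.80, 1.28 and 1.34 for miR-34a, miR-34b-3p and miR-34c, with 0 assays called and a smallest adjusted p of 0.0522; the block changed no other call. miR-449a could not be tested at Ct limits of 32 or 38. With 3 samples a group and no block, the intervals of the 3 tested family assays on the authors' scale each span more than 4 log2 units. With the round as block they were narrower, at -0.96 to 2.55 for miR-34a, -0.45 to 3.01 for miR-34b-3p and -0.53 to 3.21 for miR-34c.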

Other observations

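Raw Ct varied by less than 1.5 cycles over the 6 samples in 11 of the 274 tested assays, a limit chosen after seeing the values. Besides miR-34b-3p and miR-34c these were miR-302d, miR-214*, miR-425*, miR-139-3p, miR-742, miR-30c-1*, miR-763, let-7g* and miR-154. Their mean Ct ran from 15.02 to 31.2, so they were not the earliest or the latest assays alone. All 11 were higher in DC-primed cells on the authors' scale, by 0.71 to 1.93 with a median of 1.28, beside 0.07 over all tested assays. Their raw Ct differed between the groups by -0.60 to 0.62 cycles. The per-sample number differed by 1.33 cycles between the groups, with -0.17, 1.34 and 2.83 in rounds 1, 2 and 3. The shared direction therefore follows from choosing assays with a nearly constant Ct and is no separate result. miR-302d belongs to a cluster of pluripotent cells. Why the Ct of these assays did not move with that number was not tested.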
